A study of Mus musculus with 8 samples.

Results

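Embryonic stem cells (ESCs) depleted of both Tip60 and Hdac6 were compared with ESCs depleted of Tip60 alone, to ask what loss of Hdac6 changed where Tip60 was already low. The comparison took 4 of the 8 arrays of the series, chosen by their labels: 2 of Tip60 KD and 2 of double KD, where KD stands for knockdown. All cells were mouse E14 ESCs, grown without feeders in medium with serum and LIF, infected with lentivirus carrying short hairpin RNAs and collected 72 hours later. Tip60 KD cells received a hairpin against Tip60, and double KD cells received hairpins against Tip60 and Hdac6. The other groups of the series were Hdac6 KD, with a hairpin against Hdac6, and control KD, with a hairpin against GFP. The methods describe 1 hairpin per gene, so an effect of the hairpin itself and an effect of losing the gene cannot be told apart. The 2 samples of each group are biological replicates, lettered A and B. All 4 groups of a letter were hybridised on 1 slide, and each group took the same position on both slides, so position and group cannot be told apart.

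Tip60, encoded by Kat5, is the acetyltransferase subunit of Tip60-p400, a chromatin complex that acetylates histones and exchanges histone variants at promoters. In ESCs this complex holds many differentiation genes at low levels and keeps other genes active. Hdac6 is a class II deacetylase. In most cells it is cytoplasmic and removes acetyl groups from tubulin, Hsp90 and cortactin, and its ubiquitin-binding domain brings misfolded proteins to aggresomes. In ESCs it is also found with Tip60-p400 in the nucleus, which is why its loss was examined with and without Tip60.

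Levels are given as log2 of the array signal relative to the 75th percentile of that array, so that 0 is the level of that percentile and 1 unit is 2-fold. Values below a common floor of -2.71 were raised to it. Differences are double KD minus Tip60 KD on this log2 scale, measured within each slide and then averaged over both slides (n = 2 per group). A gene was called when limma's moderated test gave a Benjamini-Hochberg adjusted p under 0.1 over all 18112 genes tested. The scanner software marked between 27056 and 40609 of 43020 spots as well above background on the 4 arrays. Tip60 KD B was the lowest of these, and it also had the largest background subtracted, a median of 89.0 against 37.2 to 41.4 units on the other 3 arrays. The part of this difference in the results was not tested beyond a fit with the same background on every array, which called 5325 genes.

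Hdac6 was the gene with the largest fall. It read 1.74 and 1.77 in Tip60 KD and 0.30 and 0.34 in double KD, so the groups did not overlap. Of all genes, 40.5% likewise did not overlap between these groups of 2 arrays, here and wherever overlap is mentioned below. The Hdac6 difference was -1.44 (95% interval -1.57 to -1.30, adjusted p = 0.00674), which left 36.9% of the signal of Tip60 KD cells. Hdac6 RNA was therefore reduced but still measured in the double KD. For comparison, its level was 2.21 and 2.18 upon control KD and -0.28 and -0.32 upon Hdac6 KD, where 17.8% of the control signal remained. Hdac6 is on the minus strand of chromosome X in build mm9, where a pair of overlapping probes at chrX:7507261-7507320 and chrX:7507249-7507308 read it. Both gave a difference of -1.44. Both hold the polyadenylation signal at the end of the transcript, shown here in capitals in 30 bases of each probe because the place of a probe along its gene matters below.
Hdac6, main probe: caggtcagcatatttAATAAAgttggagtt
Hdac6, second probe: gtcagcatatttAATAAAgttggagttgct

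Kat5, the target of the hairpin that both groups received, did not pass the test. Its level was 0.00 and 0.01 in Tip60 KD and -0.11 and 0.20 in double KD, against 1.34 and 1.37 upon control KD. The difference was 0.04 with a 95% interval of -0.18 to 0.27 (adjusted p = 0.80), and a second Kat5 probe gave -0.04. The groups overlapped. Depletion of Kat5 RNA in the double KD and the Tip60 KD was thus not told apart within this interval.

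**Figure D1:**
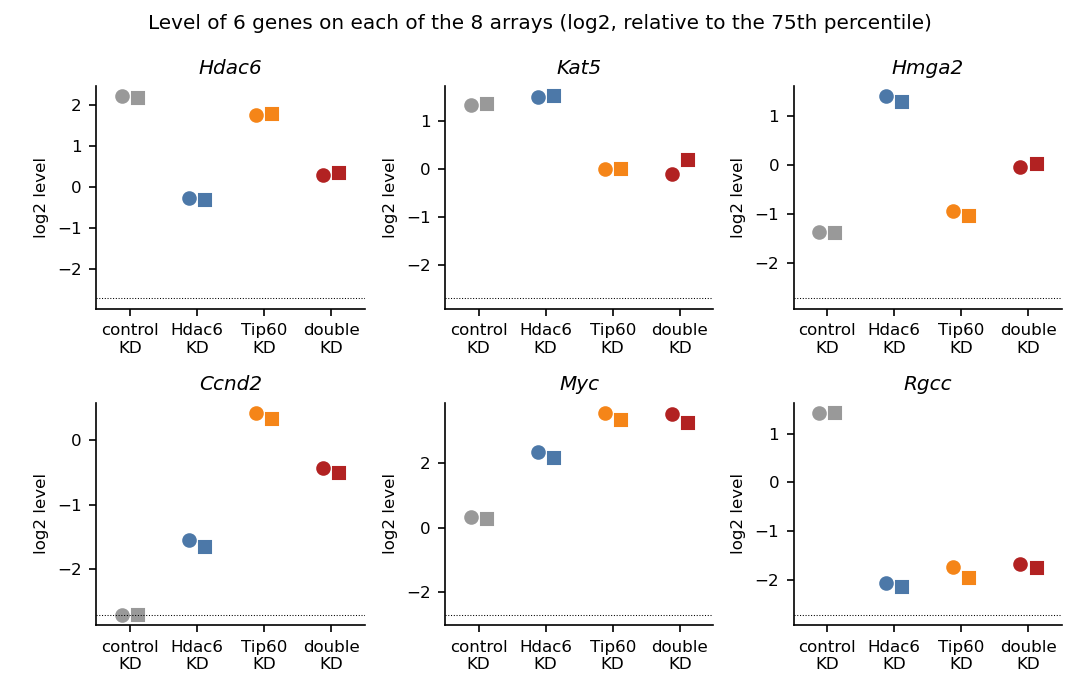
Level of 6 genes on each of the 8 arrays, as log2 of the signal relative to the array's 75th percentile, with circles for slide A and squares for slide B. The dotted line is the floor at -2.71. Hdac6 is low where its hairpin was used, Kat5 is low in both Tip60-depleted groups, Myc and Rgcc are at nearly the same level in Tip60 KD and double KD, and Hmga2 and Ccnd2 differ between these groups.

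Differences between double KD and Tip60 KD were many but small. Of 18112 genes, 4747 were called (26.2%), 2385 higher (13.2%) and 2362 lower (13%) in double KD. Only 393 of these differed by at least 1.5-fold and 19 by at least 2-fold (0.105%), 2 of them higher and 17 lower. The count past 2-fold moved with the setting: it was 93 without double KD B (10 higher and 83 lower), 7 after normexp and quantile normalisation, 8 in the series matrix values, and 25 without Tip60 KD B, of which 14 were higher. The median size of the difference over all genes was 0.13, and 97.1% of genes had a 95% interval lying wholly inside a 2-fold change in both directions. For 3 genes the interval lay wholly beyond 2-fold.

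The 2 slides gave related differences. Across genes, the slide A and slide B differences had a Pearson r of 0.58 and a Spearman rho of 0.66, a description over genes, which are not independent. The sign was the same on both slides for 69.2% of all genes and for 4730 of the 4747 called. The count of calls rested on comparing arrays within a slide and on estimating the spread from all 8 arrays. Without the replicate block 671 genes were called, 207 higher and 464 lower. In the 4 arrays alone, 3070 were called with the replicate block and 0 without it, where 2195 genes had an unadjusted p under 0.05. Leaving out 1 of the 4 compared arrays left between 804 genes (without Tip60 KD B) and 1928 genes (without double KD B), with 1242 without Tip60 KD A and 1505 without double KD A. Leaving out either Hdac6 KD array left 3013, although those arrays entered only the spread.

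**Figure D2:**
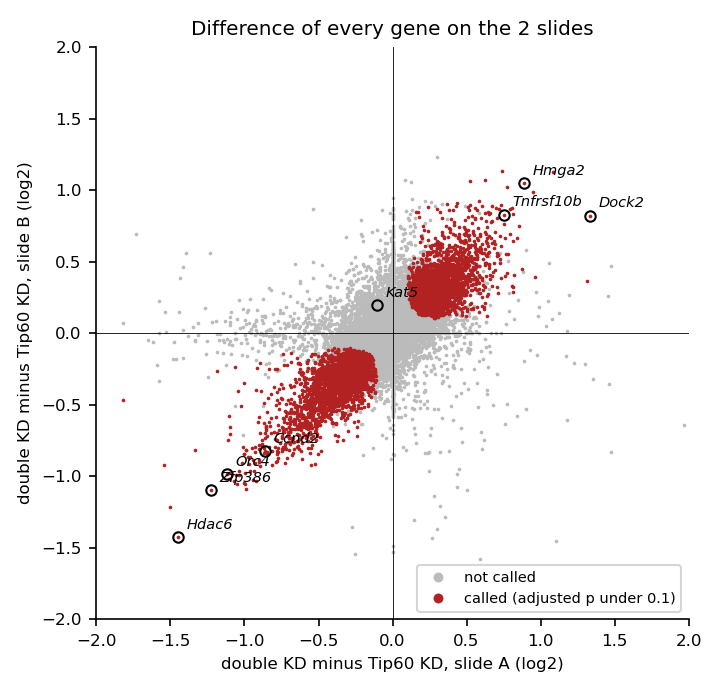
Difference of each gene, double KD minus Tip60 KD on the log2 scale, on slide A (horizontal) and slide B (vertical), with genes called at an adjusted p under 0.1 in red. The plot shows 17954 genes, and 12 lie outside the axes. Most called genes lie at the upper right and lower left within 1 unit of 0, with Hdac6 at the lower left.

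The largest fitted rise was not called. Srsf7, a splicing factor, had a difference of 3.83 because its level was at the floor on Tip60 KD A and 4.65, 4.88 and 4.71 on the other 3 arrays. Tip60 KD A held 9 such genes, at the floor there and over 4-fold above it on each of the other 3 arrays, and the other 3 arrays held 0. None of the 9 was called.

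Before naming genes, the place of the probe along the transcript has to be given, since the differences moved with it. Labelled RNA is made from the polyadenylated end, where the signal AATAAA or its variant ATTAAA lies just before the cleavage site. Among 18986 probes above the floor on all 4 arrays, 3640 (19.2%) held one of these hexamers. Their median difference was 0.07 on slide A and 0.09 on slide B, against -0.05 and -0.01 for the 15346 other probes. In the calls the contrast was larger: 28.5% of the genes called higher were read by such a probe, against 5.72% of those called lower and 19.4% of those not called. Probe base composition moved with the calls too, with a median GC content of 38.3% for genes called higher and 45% for genes called lower. Fitting only probes with AATAAA or ATTAAA, an alternative added after seeing the data, called 958 of 3884 genes (24.7%), of which 791 (82.6%) were higher.

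The same shift was seen within genes. For 2378 genes with at least 2 probes above the floor on the same strand, the difference at the probe nearest the 3′ end was set against that at the probe nearest the 5′ end. The 3′ probe gave the higher difference on both slides in 62.5% of genes and the lower on both in 17.8%. The median gap was 0.16 on slide A and 0.17 on slide B. It was 0.07 and 0.08 for probes 60 to 200 bases apart, 0.20 and 0.22 at 2001 to 5000 bases, and 0.13 and 0.10 beyond 20000 bases. In the comparison of Hdac6 KD with control KD, which shares no array with this one, the gap ran the other way, at -0.12 and -0.13. Of 547 genes with at least 2 called probes, 154 had probes called in opposite directions. Birc5, the mitotic protein survivin, was 1 of the genes read both ways: its probe with the polyadenylation signal rose by 0.32 while its other 2 probes gave -0.38 and -0.35. The probes of the glycolytic enzyme Pfkp likewise gave -0.67 without the signal and 0.33 with it. The part of probe position in the differences of single genes was not tested.

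**Figure D3:**
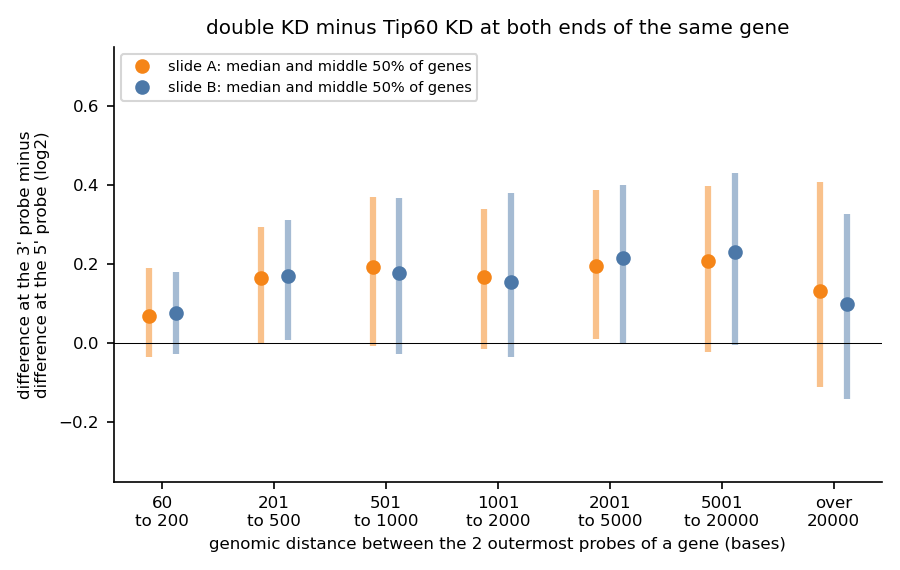
For genes with 2 or more probes, the double KD minus Tip60 KD difference at the probe nearest the 3′ end minus that at the probe nearest the 5′ end (log2), by the genomic distance between the probes in bases. Points are medians and bars the middle 50% of genes, orange for slide A and blue for slide B. Medians lie above 0 on both slides in every distance class, from 0.07 at 60 to 200 bases to 0.23 at 5001 to 20000 bases.

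Some probes that fell most share stretches of sequence, and 2 such sets are shown because they read 8 of the 17 genes that were called and at least 2-fold lower. They were picked after their values were seen, so their levels are a description. The first set holds CTGGTATGAC, in capitals below, a stretch of the coding sequence of the glycolytic enzyme Gapdh. The mouse genome carries many processed copies of Gapdh, and most of these probes have no gene name on the array. Of the 15 probes with this stretch (0.079% of probes above the floor on all 4 arrays), 15 were lower in double KD on both slides, with differences from -1.36 to -0.76 and a median of -0.98. Among all 18986 probes above the floor, 7423 were lower on both slides and 7222 higher on both. Examples at 4 places in build mm9 follow.
Probe at chrX:37353992-37354051: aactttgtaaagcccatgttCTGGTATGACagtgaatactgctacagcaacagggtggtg
Probe at chr1:52560090-52560149: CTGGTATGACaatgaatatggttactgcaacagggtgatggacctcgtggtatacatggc
Probe at chr8:100089528-100089587: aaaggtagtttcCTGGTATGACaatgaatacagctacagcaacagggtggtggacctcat
Probe at chr10:121607327-121607386: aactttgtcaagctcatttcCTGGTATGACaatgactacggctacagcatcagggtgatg

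In that order their levels were 2.51 and 2.09, 4.28 and 4.27, 5.87 and 5.68, and 6.13 and 5.97 in Tip60 KD. In double KD they were 1.01 and 0.87, 3.20 and 3.24, 4.91 and 4.82, and 5.40 and 5.17. The groups did not overlap for any of these 4 probes, nor for 40.5% of all genes. Over the 15 probes, the median level was highest upon Tip60 KD (5.37), with 4.79 upon Hdac6 KD, 4.71 upon control KD and 4.40 for double KD. Of the probes named Gapdh that hold AATAAA, 1 on chromosome 6 gave -0.12 and 1 on chromosome 7 gave 0.03. A further Gapdh probe on chromosome 6 with a polyadenylation signal was missing on Tip60 KD A and gave 0.07 on slide B. The 5 Gapdh probes without AATAAA ranged from -0.71 to 0.07. Gapdh RNA and RNA of its copies cannot be told apart by probes this alike.

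The second set holds GAGAGAAACC, in capitals below. In genes of C2H2 zinc finger proteins, a large family of DNA-binding proteins, it lies in the linker between the fingers. Probes named Col9a1 and Ankrd12, outside this family, hold it as well and are counted here, at -0.21 and 0.04. Of the 39 probes with this stretch (0.205% of probes), 36 were lower on both slides and 0 were higher on both, with a median difference of -0.61. Among all 18986 probes these counts were 7423 and 7222. Their median level was highest upon Tip60 KD (1.89), with 1.49 upon Hdac6 KD, 1.16 for double KD and 0.80 upon control KD. Within genes named Zfp, 19 probes with the stretch had medians of -0.65 and -0.54 on the 2 slides, against 0.00 and 0.05 for 373 probes without it. Probes of Zfp386, Zfp930 and Zfp534 are shown as examples.
Zfp386, chr12:117298639-117298698: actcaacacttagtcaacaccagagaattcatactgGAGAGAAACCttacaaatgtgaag
Zfp930, chr8:71752264-71752323: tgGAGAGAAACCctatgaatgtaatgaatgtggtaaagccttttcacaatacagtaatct
Zfp534, chr4:147048379-147048437: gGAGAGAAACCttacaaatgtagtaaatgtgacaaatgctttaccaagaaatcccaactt

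Zfp386 had the largest fall after Hdac6 among the genes named here. Its linker probe read 3.07 and 2.63 in Tip60 KD and 1.85 and 1.53 in double KD, without overlap, a difference of -1.16 (adjusted p = 0.00674). The other 2 Zfp386 probes lay near the floor, between -2.63 and -2.29 in Tip60 KD, and could not show a fall of that size. The second probe of Zfp534 was bright, at 4.06 and 3.84 in Tip60 KD, and gave -0.04, against -0.90 at its linker probe (adjusted p = 0.0144). Zfp992 likewise gave -0.82 at its main probe and -0.06 at a second probe that read 2.24 and 1.96 in Tip60 KD. Zfp976 gave -0.84 and 0.29, and for Zfp930 and Zfp967 the main probes gave -0.94 and -0.83. The other probe of Zfp930 gave -0.22, and those of Zfp967 -0.21 and -0.35. Zfp345 fell by 0.93, and its second probe was at the floor on both Tip60 KD arrays, so it could show no fall. Zfp933, read by 1 probe, fell by 0.96. These 8 Zfp genes were among the 14 genes besides Hdac6 named for their falls, a choice that left out clone and predicted gene names, and 5 of the 8 were read by a linker probe. Whether these probes also match other genes of the family was not tested, so the gene behind each value is uncertain.

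The other genes named for their falls by the same choice were Orc4, Snap47, Spg21, Notch4, Srp54a and Ccnd2. Snap47, a SNARE protein of membrane fusion, was the one with 2 clearly measured probes that gave about the same fall. Its main probe read 1.46 and 1.44 in Tip60 KD and 0.47 and 0.35 in double KD, a difference of -1.04 (95% interval -1.19 to -0.89, adjusted p = 0.00674), and its second probe gave -0.91. Orc4, a subunit of the origin recognition complex that marks replication origins, read 0.56 and 0.46 in Tip60 KD against -0.56 and -0.53 in double KD. That difference was -1.05 (adjusted p = 0.00702), but a second Orc4 probe gave -0.24.

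Ccnd2, a D-type cyclin of the G1 phase, read 0.43 and 0.32 in Tip60 KD and -0.44 and -0.50 in double KD. The groups did not overlap and the difference was -0.84 (95% interval -0.99 to -0.70, adjusted p = 0.00862). It was at the floor on both control KD arrays and at -1.54 and -1.66 upon Hdac6 KD, so its level in double KD still lay above both of those groups. Notch4, a receptor of the Notch family, fell by 0.87 and Spg21, a hydrolase-like protein named for hereditary spastic paraplegia, by 0.88 (adjusted p = 0.00862 for both). Srp54a, which encodes a subunit of the signal recognition particle, fell by 0.86 at 1 probe. Its second probe, above the floor on 2 of the 4 arrays, gave -0.07, and close copies of this gene make its identity uncertain.

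Among the rises, Hmga2 was both large and even. Hmga2, an architectural chromatin protein of proliferating embryonic cells, read -0.94 and -1.03 in Tip60 KD and -0.05 and 0.02 in double KD. The difference was 0.97 (95% interval 0.81 to 1.13, adjusted p = 0.00862), close to 2-fold on each slide and without overlap. A second Hmga2 probe was above the floor on 1 of the 4 arrays and carried no information. Dock2, an activator of the Rac GTPase best known in blood cells, had a larger but less even rise of 1.08. It read -2.03 and -1.14 in Tip60 KD and -0.69 and -0.32 in double KD, and its 95% interval ran from 0.47 to 1.68 (adjusted p = 0.0396). Tnfrsf10b, a death receptor induced by p53, read -0.07 and -0.26 in Tip60 KD and 0.68 and 0.57 in double KD, a rise of 0.79 (adjusted p = 0.00862).

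U2af2, which recognises the 3′ splice site, rose by 0.76 at its main probe (adjusted p = 0.00862) and its second probe gave 0.82. Its level was -0.89 and -0.91 in Tip60 KD and -0.14 and -0.14 in double KD. Ppp1r10, a nuclear regulator of protein phosphatase 1, rose by 0.90 and Med13l, a subunit of the Mediator kinase module, by 0.79. Snhg3, a host transcript of small nucleolar RNAs, rose by 0.80, with -0.03 and -0.16 in Tip60 KD and 0.82 and 0.58 in double KD. Dnmt3a, a de novo DNA methyltransferase, read -1.72 and -2.35 in Tip60 KD and -1.14 and -1.43 in double KD, a rise of 0.75 (adjusted p = 0.0171).

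The other rises were spread over several functions. Slc6a9, a glycine transporter, rose by 0.78 at its main probe and gave 0.70 at its second. Mvb12b, of the ESCRT-I sorting complex, rose by 0.84, Tmem98 by 0.83, Fam81a by 0.82, and Selenoi, an enzyme of phosphatidylethanolamine synthesis, by 0.79. Olfr1248, named for an olfactory receptor, rose by 0.75. Zfp605 rose by 0.84, but its slide differences were 1.31 and 0.37 and its adjusted p was 0.0871.

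**Figure D4:**
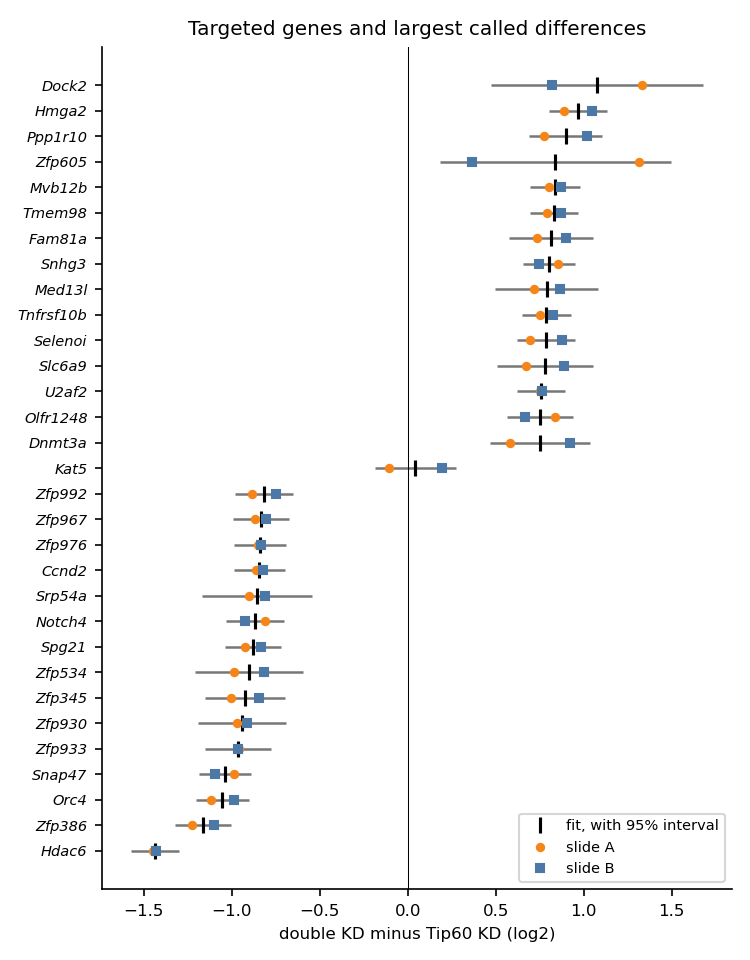
Difference of the 2 targeted genes and of the genes with the largest called rises and falls, double KD minus Tip60 KD (log2). Black marks are the fitted differences, grey lines their 95% intervals, orange circles slide A and blue squares slide B. Hdac6 lies at -1.44, Kat5 spans 0, and the 2 slides lie close together except for Dock2 and Zfp605.

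Gene lists were described by how many members were called and by their median difference, beside 13.2% called higher, 13% called lower and a median of 0.00 over all genes. The lists overlap, and members read by different probes can disagree as shown above. Of 18 Tip60-p400 subunits, 4 were higher and 4 lower, with a median of 0.00. That is 44.4% called, against 26.2% of all genes. Yeats4, which reads acetylated histone tails, read 1.26 and 0.98 in Tip60 KD and 0.71 and 0.42 in double KD, a fall of 0.55 (adjusted p = 0.0107). Vps72, which binds the histone variant H2A.Z, rose by 0.60 from near the floor, at -1.98 and -2.27 in Tip60 KD. Actl6a, an actin-related subunit, fell by 0.36. Ep400, the ATPase, gave -0.20 and Trrap, the scaffold, 0.14, and neither was called. Of 16 histone deacetylases, 4 were higher and 5 lower (56.2% called), Hdac6 itself among the lower. Hdac2, a nuclear class I enzyme, fell by 0.52 (adjusted p = 0.0107), and its levels of 1.51 and 1.45 in Tip60 KD did not overlap with 1.03 and 0.87 in double KD. Hdac1, its close relative, gave 0.19 and was not called.

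Few genes for the substrates and partners of Hdac6 were called. Of 20, 1 was higher and 1 lower (10% called), with a median of -0.02. Sqstm1, the autophagy receptor p62, fell by 0.38 at its main probe while its second probe gave 0.10, and the peroxiredoxin Prdx2 rose by 0.27. The genes for α-tubulins Tuba1a, Tuba1b, Tuba1c and Tuba4a gave 0.14, -0.04, 0.05 and -0.14, Hsp90aa1 gave 0.00 and the cortactin gene Cttn 0.13, none of them called. Of 21 heat shock proteins and co-chaperones, 0 were higher and 5 lower (median -0.10), led by the mitochondrial chaperones Hspa9 (-0.38) and Hspd1 (-0.32) and the Hsp90 co-chaperone Fkbp4 (-0.33). Of 26 autophagy and lysosome genes, 6 were higher and 8 lower (53.8% called). The autophagy receptor Calcoco2 fell by 0.68, with -0.65 at its second probe, and Becn1, of the phosphatidylinositol kinase complex that starts autophagosomes, fell by 0.45. Of 27 microtubule genes, 2 were higher and 5 lower, from Tppp3 at -0.69 to Map1b at 0.53.

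ESC identity genes moved in both directions. Of 11 ESC markers, 1 was lower and 0 were higher, from -0.38 to 0.24. Over all genes the 5th and 95th percentiles of the difference were -0.41 and 0.36. Pou5f1, which encodes Oct4, read 4.17 and 4.13 in Tip60 KD and 3.93 and 3.60 in double KD, a fall of 0.38 (adjusted p = 0.0429). Sox2 gave -0.11, Esrrb 0.04, Klf4 0.11 and Zfp42 -0.09, none of them called. The value for Nanog, 0.24 and not called, rests on 3 arrays, since its spot on Tip60 KD A was set to missing. Of 26 pluripotency genes, 5 were higher and 4 lower, with Nr5a2, an activator of Pou5f1, at 0.47 (0.05 at its second probe) and Dppa4 at -0.44 (-0.39 at its second). Of the 9 formative and primed epiblast genes tested of 13 listed, 3 rose and 0 fell (median 0.14): Dnmt3a, Dnmt3b (0.35, with -0.11 and 0.07 at its other 2 probes) and the Fgf-responsive factor Etv5 (0.32). Of 18 Nodal and Lefty pathway genes, 5 were higher and 2 lower. The ligand Nodal fell by 0.33 while its receptor Acvr1b rose by 0.40 and the signal transducer Smad3 by 0.45. Of the 17 germ layer and lineage genes tested of 32 listed, 1 was higher and 3 lower, with Eomes, a factor of mesoderm and trophoblast, at -0.51 and Snai2 at 0.48. A second Eomes probe gave -0.04.

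Markers of other cell types were summed on each array. The summed signal of 8 fibroblast markers, on the scale of the 75th percentile, was 77.5 and 69.5 in Tip60 KD and 87.8 and 76.6 in double KD, with 1 of them called higher (Fn1, 0.21) and 0 lower. The fibroblast sums were thus higher in double KD on each slide. Most of each sum was Fn1, which read 5.84 and 5.68 in Tip60 KD and 6.06 and 5.87 in double KD. The median difference of the 8 markers was -0.02, so the sums show no rise of the set. The part of these markers in the results was not tested. Twist1, also on the fibroblast list, was at the floor on 3 of the 4 arrays and at -2.58 on Tip60 KD B. Of 6 primitive endoderm markers 0 were called, with sums of 26.9 and 24.0 in Tip60 KD and 28.2 and 23.4 in double KD, and of 6 trophoblast markers 1 was higher and 1 lower, with sums of 8.44 and 8.57 against 9.79 and 9.25. The sums of 11 ESC markers were 361 and 372 in Tip60 KD and 383 and 363 in double KD.

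Targets of p53 were more often called higher than lower in double KD against Tip60 KD. Of 25 tested, 10 were higher (against 13.2% of all genes) and 1 was lower, with a median of 0.10. Beside Tnfrsf10b, the polo-like kinase Plk2 rose by 0.66, the skin and adhesion protein Perp by 0.51, and Bbc3, the apoptotic protein Puma, by 0.47. Upon control KD, Tnfrsf10b read 1.78 and 1.67, Plk2 0.77 and 0.52, Perp 0.87 and 0.95, and Bbc3 1.82 and 1.80. All of these were lower upon Tip60 KD and, on each slide, still below control KD in double KD. The cell cycle inhibitor Cdkn1a gave -0.14 and was not called. Only probes with AATAAA or ATTAAA left 8 of the targets, 4 higher and 1 lower, where 20.4% of all genes so read were higher and 4.3% lower. Of 22 Atf4 stress response genes, 6 were higher and 2 lower. Chac1, which degrades glutathione, read 1.07 and 1.01 in Tip60 KD and 1.71 and 1.68 in double KD, a rise of 0.65, and the pseudokinase Trib3 rose by 0.60. Both stayed below control KD, where Chac1 read 2.43 and 2.51 and Trib3 2.71 and 2.57. Ddit4 and Sesn2, which curb mTORC1, belong to the p53 list and rose by 0.46 and 0.44. Ddit4 read 4.38 and 4.32 upon control KD and 2.71 and 2.62 in double KD. Sesn2 went the other way, with -1.17 and -1.16 upon control KD and -1.04 and -0.96 in double KD. Of 23 actin and SRF targets, 9 were higher and 0 lower (median 0.15). Actb, cytoplasmic actin, read 5.42 and 5.40 in Tip60 KD and 5.86 and 5.85 in double KD, a rise of 0.44 (adjusted p = 0.0231), and the immediate early gene Ier2 rose by 0.56.

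Cell cycle genes were mixed. Of 39 DNA replication genes, 3 were higher and 11 lower, while the median was -0.02. Beside Orc4, the clamp loader subunit Rfc3 fell by 0.54, the replication helicase subunit Gins2 by 0.51 and the single-strand binding subunit Rpa2 by 0.38. Of the MCM helicase, Mcm5 fell by 0.22 and Mcm2, Mcm3 and Mcm7 gave 0.02, 0.04 and 0.00. The 7 of these genes read with a polyadenylation signal held 2 called higher and 0 lower. That is near the share of all genes so read, 20.4% higher and 4.3% lower. Of 28 G2 and mitosis genes, 3 were higher and 6 lower, with Top2a, the decatenating topoisomerase, at -0.52. Of 20 G1 genes, 5 were higher and 2 lower: the activating factors E2f1 and E2f3 rose by 0.46 and 0.44 (-0.07 at a second E2f3 probe), while Ccnd2 and the cell cycle inhibitor Cdkn1c (-0.57) fell. Of 11 Myc network genes, 3 were higher and 1 lower, and Myc itself gave -0.07.

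Of 39 chromatin modifiers, 8 were higher and 4 lower. Suz12, a core subunit of Polycomb repressive complex 2, read 3.60 and 3.40 in Tip60 KD and 2.91 and 2.77 in double KD, a fall of 0.66 (95% interval -0.79 to -0.53, adjusted p = 0.00862). Its partner Eed gave 0.13 and was not called, and the catalytic subunit Ezh2 rose by 0.19. Tet1, which oxidises 5-methylcytosine, rose by 0.61 at its main probe, with 0.41 and 0.03 at its other 2. Of 19 let-7 regulated oncofetal genes, 5 were higher and 4 lower (47.4% called). Hmga2 and Ccnd2 stood at the 2 ends of this list, and the RNA-processing enzyme Dicer1 (0.54) and the RNA-binding protein Trim71 (0.47) rose. Of 34 splicing factors, 5 were higher and 4 lower.

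The remaining lists held values on both sides of 0. Of 32 ribosome biogenesis factors, 4 were higher and 7 lower, with the methyltransferase Ftsj3 at -0.72 and dyskerin, encoded by Dkc1, at -0.53. Of 32 oxidative phosphorylation subunits, 4 were higher and 1 lower (15.6% called). Of 25 glycolysis and hypoxia genes, 6 were higher and 3 lower, and of 22 sterol synthesis genes 3 were higher and 4 lower, with Insig1, the brake on sterol regulatory proteins, at 0.58. Of 12 interferon response genes, 3 were higher and 2 lower. Of 14 housekeeping genes, 2 were higher and 2 lower, from -0.47 (Tfrc) to 0.44 (Actb). Further Tfrc probes gave -0.28 and -0.02. A panel of 9 genes for RT-qPCR was picked on these samples and is no independent evidence of a direction. It held 2 genes that were higher and 1 that was lower, the Wnt antagonist Sfrp5 (-0.65).

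Hdac6 loss was then compared between cells with and without Tip60 depletion: double KD minus Tip60 KD was set beside Hdac6 KD minus control KD, 2 differences with no array in common. Where Tip60 was intact, Hdac6 KD changed far more. In Hdac6 KD against control KD, 9586 genes were called (52.9%), 461 of them by at least 2-fold (2.55%), against 19 genes of that size in double KD against Tip60 KD, a count that was 93 without double KD B and 7 after normexp and quantile normalisation. For the 239 genes at least 2-fold higher upon Hdac6 KD, with a median difference of 1.16 there, the median difference in Tip60-depleted cells was 0.07 (0.05 on slide A and 0.08 on slide B). For the 221 genes at least 2-fold lower, Hdac6 itself left out, the medians were -1.18 and 0.03. In Tip60-depleted cells the 95% interval excluded a 2-fold change in either direction for 227 of the 239 (95%) and 211 of the 221 (95.5%), near the 97.1% of all genes. Of the 239, 66 were called higher (27.6%) and 40 lower (16.7%), and of the 221, 35 were called higher (15.8%) and 28 lower (12.7%). Over all genes 13.2% were called higher and 13% lower. The control KD arrays had 31179 (A) and 21896 (B) spots well above background, against 39866 and 27645 for Hdac6 KD. Their median backgrounds subtracted were 61.0 and 114.3, against 37.7 and 86.9. With the same background on every array, 205 genes were at least 2-fold higher and 182 lower upon Hdac6 KD. The part of background in this comparison was not tested further.

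Across all 17943 genes with a value on all 8 arrays, the 2 differences had a Pearson r of -0.07, while the Hdac6 KD minus control KD differences of slides A and B had an r of 0.77. The interaction, double KD minus Tip60 KD minus the difference of Hdac6 KD and control KD, was called for 8523 genes (47.1%). Hdac6 itself fell by 1.44 in one background and by 2.49 in the other, so the depletion that was compared was not equal.

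**Figure D5:**
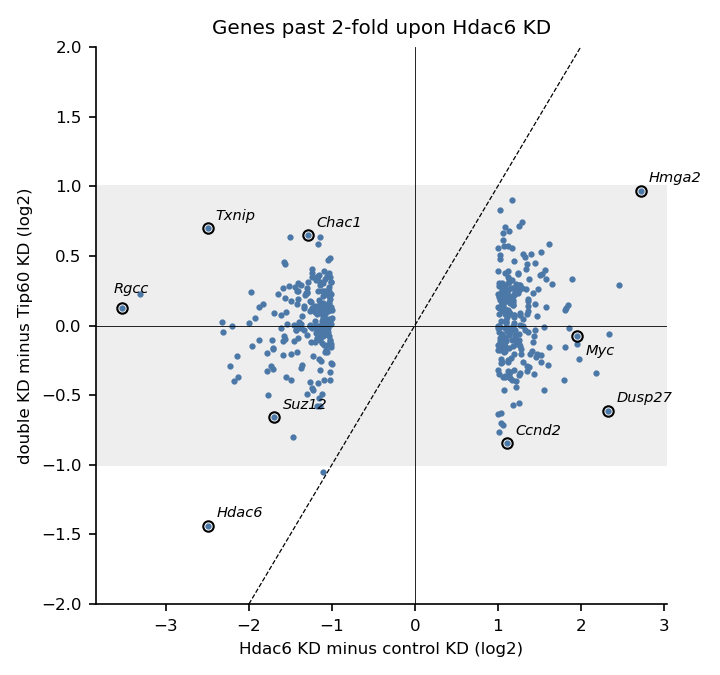
The 461 genes called and at least 2-fold changed upon Hdac6 KD, with Hdac6 KD minus control KD on the horizontal axis and double KD minus Tip60 KD on the vertical axis (both log2). The dashed line marks equal differences and the grey band a 2-fold change in double KD against Tip60 KD. Nearly all genes lie in the band around 0 rather than along the line, with Hdac6 and Hmga2 nearest to the corners of equal sign.

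The genes with the largest responses to Hdac6 KD are described by name. Of the 20 largest among named genes above the floor on all 8 arrays, Hdac6 left out, each changed by at least 1.73 upon Hdac6 KD, and 19 had an interval inside 2-fold in double KD against Tip60 KD, as did 97.1% of all genes. There 5 were called in the same direction and 4 in the opposite one. Myc, the growth-promoting transcription factor, read 0.34 and 0.26 upon control KD and 2.35 and 2.16 upon Hdac6 KD. It read 3.57 and 3.33 upon Tip60 KD and 3.52 and 3.23 in double KD, a difference of -0.07 (95% interval -0.25 to 0.10). Rgcc, a regulator of the cell cycle and complement response, read 1.42 and 1.43 upon control KD and between -2.15 and -1.67 on the 6 other arrays. Its difference between double KD and Tip60 KD was 0.13 (adjusted p = 0.27). Stra8, a gene of meiotic entry, read 2.57 and 2.05 upon control KD and 0.16 and 0.05 upon Hdac6 KD. It read 0.94 and 0.76 upon Tip60 KD and 0.87 and 0.81 in double KD. For these 3 genes the levels of double KD and Tip60 KD lay within 0.3 of each other on each slide.

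Cidea, a lipid droplet protein, had another pattern. It read -0.04 and -0.24 upon control KD and -2.26 and -2.65 upon Hdac6 KD, but 0.18 and -0.10 upon Tip60 KD and 0.13 and -0.16 in double KD. Its level was thus lowered by Hdac6 KD where Tip60 was intact and was about the same in the other 3 groups. Hmga2 moved in the same direction in both backgrounds, from -1.37 and -1.39 upon control KD to 1.40 and 1.29 upon Hdac6 KD, a rise of 2.72 against 0.97 in Tip60-depleted cells. The interaction for Hmga2 was -1.75 (adjusted p = 0.00115).

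Genes with at least 1.5-fold called changes in both backgrounds, and above the floor on all 8 arrays, were few. In the same direction there were 20, 13 higher and 7 lower, and in opposite directions 29, 21 of them lower in double KD. The 7 lower in both were Hdac6, Orc4, Snap47, Suz12, Rbbp7, Plekhb2 and Klk1. Rbbp7, a histone chaperone found with Suz12 in Polycomb repressive complex 2 and in deacetylase complexes, fell by 0.64 in Tip60-depleted cells and by 0.92 upon Hdac6 KD. Suz12 fell by 0.66 and by 1.70, with an interaction of 1.04 (adjusted p = 0.00138). Snap47 fell by 1.04 and by 0.93, Orc4 by 1.05 and by 1.11. Besides Hmga2, the 13 higher in both included U2af2 (0.76 and 0.68), the cell cycle repressor E2f8 (0.66 and 0.73) and the imprinted placental gene Phlda2 (0.72 and 1.25). Of the 21 that were lower in double KD and higher upon Hdac6 KD, 11 carried a Zfp name. The 8 with the reverse pattern included Txnip, the inhibitor of thioredoxin. It read 4.57 and 4.43 upon control KD, 2.12 and 1.88 upon Hdac6 KD, 1.78 and 1.49 upon Tip60 KD and 2.47 and 2.19 in double KD, a rise of 0.70 (adjusted p = 0.00862). Chac1, Trib3, Plk2 and Tnfrsf10b were among these 8 as well.

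The promoters of called genes were searched for a few known motifs. RefSeq promoters of assembly GRCm38.p6, reaching from 250 bases before to 50 bases after the start, were given for 11419 of the 18112 genes (14369 promoters). The GC-box core GGGCGG, counted on either strand, was in 64.2% of promoters of genes called higher, 60.2% of those called lower and 57.1% of all. CCAAT was in 34.4%, 41.7% and 37.9%, the E-box CACGTG bound by Myc in 10.8%, 10.5% and 9.35%, and TATAAA in 6.94%, 7.64% and 8.77%. The cyclic AMP response element TGACGTCA was in 2.95%, 3.7% and 2.77%. None of these motifs contains another, and a match is not a bound site. No test was made of these shares.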

How the data were processed

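Cy3-labelled cRNA of 8 samples (2 of each of 4 groups) was hybridised to 1-colour Agilent mouse arrays and read by the authors with Feature Extraction (version 10.7.1.1 per the submitters' processing notes). Per the file headers, the deposited intensity values are background-subtracted and not scaled between arrays, on build mm9. The deposited series matrix holds log2 values that ranked probes as each array's median signal did, and was used as an alternative.

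Outlier spots were set to missing, spots of a probe averaged, and each array divided by its 75th percentile. The floor was the highest, over arrays, of the lowest scaled signal that the software marked well above background. A probe called above the floor carried that mark too. Probes had to pass on 2 of the 8 arrays, and the brightest probe stood for a gene. limma (version 3.58.1, R 4.3.3) fitted groups and replicate letter to all 8 arrays, tested on simulated data first. The replicate letter is the slide, and the A minus B differences of groups correlated at 0.65 to 0.80 across genes, so the letters were taken as pairs. Their number limits the precision of the arrays.

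Named genes were Hdac6, Kat5 and the 15 largest called rises and falls with 1 sign on both slides, in normexp values and in the series matrix, above the floor on all 4 arrays, without clone names. Per list, at most 6 called members were named. Members and lists were chosen with earlier results of these data known.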

Additional observations from a re-analysis of the deposited data

Results flagged for a closer look

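The interaction test in limma, double KD minus Tip60 KD against Hdac6 KD minus control KD, was called for 8523 genes (47.1%). Hdac6 itself fell unequally, by 1.44 and by 2.49. The gap between 3′ and 5′ probes ran in opposite directions, at 0.16 and 0.17 in the first difference and -0.12 and -0.13 in the second. The part of either in the interaction was not tested. Genes below were named for their difference between double KD and Tip60 KD, which is part of the interaction. The interaction (log2, n = 2 per group) was called for the following of them. It was 1.05 for Hdac6 itself, 1.73 for Tnfrsf10b, 1.34 for Selenoi, 0.92 for Slc6a9, 0.91 for Dnmt3a, 0.79 for Snhg3, 0.68 for Mvb12b, 0.68 for Med13l and 0.65 for Olfr1248. It was -1.75 for Hmga2, -0.20 for Tmem98, -0.73 for Spg21 and -0.99 for Notch4. For the zinc finger genes it was -1.92 for Zfp386, -1.57 for Zfp933, -1.65 for Zfp930, -1.53 for Zfp345, -1.76 for Zfp534, -1.49 for Zfp976, -1.41 for Zfp967 and -1.58 for Zfp992. For Ccnd2 it was -1.95, a value that depends on the floor, since both control KD arrays lay at it. Groups of 2 arrays were too small to test for single outlying arrays.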

How the results depend on the processing

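The count of 4747 called genes depended on the replicate block and on the number of arrays. It was 671 without the replicate block, 3070 with the replicate block in the 4 arrays alone and 0 there without it, 2840 with no filter on dim probes, 3027 at an adjusted p under 0.05, 19 with a 2-fold change required, and 958 with only probes that hold AATAAA or ATTAAA, an alternative chosen after seeing the data. Leaving out 1 array gave 804 to 5275, where the lone array of a group was assumed to vary like the others. The interaction count of 8523 was 3987 without the replicate block, 2144 with only those probes, 780 with a 2-fold change required, and 5744 to 8838 when 1 array was left out. The other alternatives kept both counts within 1.5 times. The share of calls that were higher, 50.2%, was 30.8% without the replicate block and 82.6% with only probes that hold the hexamers. The replicate block with the GC trend of the probes removed gave 4245 calls. With the 3′-most probe, also chosen after seeing the data, Zfp976 turned to 0.29, and the cause was not tested. Zfp386 gave 0.15 and Zfp345 0.036 there (0.036 also with only probes that hold the hexamers), but these probes lay at or near the floor in Tip60 KD and could not show a fall. Signal over background limited Dock2, Ppp1r10, Mvb12b, Tmem98, Med13l, Selenoi, Slc6a9 and Dnmt3a. These lay within 1 unit of the floor on at least 1 Tip60 KD array, and Srp54a did so in double KD. Of the list members, Vps72, Snai2 and Ier2 lay within 1 unit of the floor on both Tip60 KD arrays. Median differences in Tip60-depleted cells of genes at least 2-fold higher upon Hdac6 KD ranged from 0.01 to 0.18 over the settings, and of those at least 2-fold lower from 0.00 to 0.08.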
